A study of Mus musculus with 18 samples.

Results

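The genes described here are Arntl, Clock, Npas2, Nfil3 and Cry1, 5 of the 19057 lines of a table of liver gene expression in mice. They were chosen by their symbols, because their levels were known to move together in these livers, so the differences between groups that follow are a description of that choice and carry no test. In the livers of mice fed a high-fat diet (HFD), all 5 genes stood lower when the mice had also been given alginate oligosaccharide (AOS) or gut microbes from AOS-dosed donors. Arntl averaged 13.3 ± 1.27 RPKM (mean ± SD, n = 3) in HFD livers, 1.24 ± 0.0709 RPKM in HFD+AOS livers and 1.30 ± 0.965 RPKM in A10-FMT livers. RPKM is the number of reads of a gene scaled to the length of the gene and to the mapped reads of the library.

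Arntl encodes BMAL1, which pairs with CLOCK or with its close relative NPAS2. The pair binds E-box sequences and switches on the genes of its own repressors, the period (Per) and cryptochrome (Cry) genes, as well as Nr1d1 and Nr1d2, which encode REV-ERB alpha and beta, and Dbp. The REV-ERB proteins in turn hold down Arntl, Clock, Npas2, Nfil3 and Cry1 at ROR elements, where the ROR proteins activate. As a result the genes peak in the liver at an opposite time of day from Nr1d1 and Dbp, with Cry1 somewhat apart, since E-boxes, D-boxes and ROR elements all act on it. Nfil3 encodes a repressor of D-box sequences, the sites at which DBP, TEF and HLF activate.

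Liver RNA was sequenced from 18 ICR mice of 6 groups, 3 per group, all 10 weeks old by their labels. Con mice ate the regular diet, and AOS mice ate it and were given 10 mg/kg alginate oligosaccharide, short sugar chains cut from a brown-alga polysaccharide. HFD mice ate the high-fat diet, HFD+AOS mice ate it and were given 10 mg/kg AOS, and Con-FMT and A10-FMT mice ate it and received fecal microbiota transplantation (FMT). Con-FMT donors were control mice, and A10-FMT donors were mice dosed with AOS at 10 mg/kg. By the methods of the study the mice were male, and the transplanted material was gut content pooled from the donors of a group, so that the 3 recipients of a group shared 1 source. The AOS and HFD+AOS groups are known here from their labels alone. The hour at which tissue was taken, on which the level of every clock gene depends, is not given in the sources used here, so that group and hour cannot be told apart. Nothing in the labels says that the replicates of a group were handled separately, so p-values measure the spread between these livers.

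The table carries no read numbers, so depth is unknown. Sums of RPKM per liver went from 692303 to 806937, and the number of genes above 0 from 14512 to 14982. The smallest steps of sparsely read genes put the relative value of 1 read at 0.974 to 1.02 across the libraries. Genes entered that check only where every liver lay near a whole multiple of the smallest value, so values near 1 follow from the choice. It cannot show whether depth was alike. The livers expressed hepatocyte markers strongly, with albumin (Alb) between 24367 and 41363 RPKM, and of 6 markers of fat and pancreas Cela1 was present in every liver (30.6 to 52.9 RPKM), while the pancreatic markers Prss2 and Cel stayed at or below 0.27 RPKM. The fat markers Adipoq, Plin1 and Cfd reached 4.42, 0.98 and 22.05 RPKM in A10-FMT replicate 1 and 0.39, 0.11 and 1.34 RPKM in A10-FMT replicate 2, and in the other 16 livers they stayed at or below 0.11, 0 and 0.32 RPKM. Con replicate 3 and AOS replicate 3 stood apart from the rest. Among genes that differed at least 2-fold between the other replicates of the group, Con replicate 3 lay between them for 98.0% of 148 genes, with a median distance of 0.0665 on the log2 scale from a weighted mean of the others, and AOS replicate 3 for 96.5% of 142 genes, with a distance of 0.0830. In the other 4 groups these distances were 0.341 to 0.590. Con replicate 3 also lay between the others for 5 of 5 of the genes described here and AOS replicate 3 for 3 of 5. Values that rest on these livers are therefore given with and without them.

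The start regions of the genes are shown first, because the elements named above are short sequences that can be looked for there. Windows from 250 bases before to 50 bases after a start were taken from RefSeq (GRCm38.p6) and were found for all 5 genes, 8 windows in total. They were searched on both strands for the E-box CACGTG, the E-box-like CACGTT, the core of the ROR element TAGGTCA and the D-box TTANGTAA, which among 32817 mouse windows of the same length occurred in 7.15%, 4.69%, 2.61% and 2.32%. Of the 5 genes, Arntl and Nfil3 held a ROR element core, Cry1 held an E-box and an E-box-like element, and none held a D-box. The windows of Clock and Npas2 held none of the 4 motifs, which says only that these letters are not in these windows. The matches follow with 10 bases on each side, read along the strand of the gene, with the motif in capitals.
Arntl, chr7:113207531-113207557, plus strand, 31 bases after the later of its RefSeq starts: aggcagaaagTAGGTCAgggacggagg
Nfil3, chr13:52981035-52981061, minus strand, 12 bases before the start: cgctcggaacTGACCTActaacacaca
Cry1, chr10:85185099-85185124, minus strand, 60 bases before the start: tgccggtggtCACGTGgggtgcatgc
Cry1, chr10:85185118-85185143, minus strand, 79 bases before the start: acacttcagaAACGTGaggtgccggt
The ROR element core of Nfil3 and the E-box-like element of Cry1 lie on the opposite strand, so the reverse complement is what appears in capitals. On Cry1 the E-box and the E-box-like element lay so close that the printed stretches overlap.

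Windows were found for 10 of 12 repressor and PAR bZIP genes, the limb of the clock that CLOCK and BMAL1 drive (Per2 and Bhlhe40 had no entry). Among them an E-box occurred in 4 genes (Per1, Tef, Bhlhe41 and Ciart), an E-box-like element in Cry2 and Nr1d1, a D-box in Per3 and a ROR element core in 0. Ciart, which encodes a repressor of CLOCK and BMAL1, held 3 E-boxes, and Per3 held a pair of D-boxes. A ROR element core occurs in 2.61% of all mouse windows searched, so 0 in these 12 windows says nothing about the genes. That share is of windows, while the counts here are of genes. The bases after the RefSeq starts of Cry2, Nr1d1 and Hlf were not found in GENCODE transcripts. The matches of Ciart and Per3 are printed below.
Ciart, chr3:95882329-95882354, minus strand: catctagagtCACGTGttgccggtaa
Ciart, chr3:95882271-95882296, minus strand: cagggggaggCACGTGcagaaccgca
Ciart, chr3:95882257-95882282, minus strand: tgcagaaccgCACGTGtctgggaggg
Per3, chr4:151044853-151044880, minus strand: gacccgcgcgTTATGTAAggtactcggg
Per3, chr4:151044806-151044833, minus strand: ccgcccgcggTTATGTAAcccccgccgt
A match is a description of the letters, and binding was not measured here.

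Arntl lies at chr7:113207465-113314126 on the plus strand (GENCODE M21, GRCm38). Its 3 livers read 10.11, 12.9 and 12.15 RPKM in Con, 11.16, 12.72 and 11.81 RPKM in AOS and 12.11, 14.64 and 13.21 RPKM in HFD. In Con-FMT they read 8.02, 12.97 and 6.94 RPKM, against 1.18, 1.23 and 1.32 RPKM in HFD+AOS and 0.79, 0.69 and 2.41 RPKM in A10-FMT. The last 2 groups held the 6 lowest livers of all 18, between 0.69 and 2.41 RPKM, and the other 12 livers lay between 6.94 and 14.64 RPKM with no overlap. For this gene and those below, the share of all genes with such a gap was not counted. The genes were chosen for this pattern, so nothing is read from the gap. In order of the mean, HFD, AOS, Con and Con-FMT each overlapped the next group, a gap separated Con-FMT from A10-FMT, and A10-FMT overlapped HFD+AOS. The mean of HFD was 10.7 times that of HFD+AOS and 10.3 times that of A10-FMT.

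Clock, the usual partner of BMAL1, lies at chr5:76209868-76304792 on the minus strand. It read 4.94, 6 and 5.68 RPKM in Con, 5.47, 5.88 and 6.29 RPKM in AOS and 6.04, 6.8 and 7.32 RPKM in HFD. Con-FMT livers read 5.4, 7.22 and 5.26 RPKM, HFD+AOS livers 2.26, 2.7 and 2.93 RPKM, and A10-FMT livers 2.4, 2.15 and 3.65 RPKM. The same 2 groups were lowest and again did not overlap the other 12 livers, which began at 4.94 RPKM. The ratios were smaller than those of Arntl, with HFD at 2.56 times HFD+AOS and 2.46 times A10-FMT. Neighbouring groups overlapped everywhere in the order except between Con and A10-FMT.

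Npas2, which can stand in for CLOCK, lies at chr1:39193731-39363236 on the plus strand and was the lowest of the 5 genes. It read 2.9, 3.48 and 2.95 RPKM in Con, 2.93, 3.61 and 3.4 RPKM in AOS and 2.64, 2.65 and 2.95 RPKM in HFD. Con-FMT livers read 1.4, 1.83 and 0.67 RPKM, HFD+AOS livers 0.11, 0.06 and 0.19 RPKM, and A10-FMT livers 0.02, 0.03 and 0.29 RPKM. Npas2 was the gene of the 5 in which Con-FMT also lay apart from both sides, below all 9 livers of Con, AOS and HFD and above the 6 of HFD+AOS and A10-FMT. HFD averaged 2.75 ± 0.176 RPKM and Con-FMT 1.30 ± 0.586 RPKM (SD, n = 3). The means of HFD+AOS and A10-FMT, 0.12 and 0.113 RPKM, are too low for a firm ratio at an unknown depth, and the gene passed the low-value filter through the groups in which it was high.

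Nfil3 lies at chr13:52967209-52981073 on the minus strand and was the most abundant of the 5 per unit of length. Its livers read 23.72, 21.2 and 23.1 RPKM in Con, 20.24, 26.32 and 22.11 RPKM in AOS and 26.76, 28.88 and 29.75 RPKM in HFD. The livers of Con-FMT read 20.81, 25.85 and 14.85 RPKM, those of HFD+AOS 8.85, 9.25 and 6.76 RPKM, and those of A10-FMT 8.76, 9.59 and 9.6 RPKM. Every HFD liver was above every Con and AOS liver. The 6 livers of HFD+AOS and A10-FMT, from 6.76 to 9.6 RPKM, were all below the other 12, the lowest of which was the third Con-FMT liver at 14.85 RPKM. The mean of HFD was 3.43 times that of HFD+AOS and 3.06 times that of A10-FMT.

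Cry1, which encodes a repressor of the CLOCK and BMAL1 pair, lies at chr10:85131700-85185064 on the minus strand and followed the others less closely. It read 8.45, 14.03 and 10.46 RPKM in Con, 5.25, 7.41 and 8.1 RPKM in AOS and 8.41, 8.47 and 10.96 RPKM in HFD. It read 7.14, 10.35 and 3.94 RPKM in Con-FMT, 2.13, 2.06 and 2.18 RPKM in HFD+AOS and 1.83, 5.41 and 4.22 RPKM in A10-FMT. Here the 6 livers of HFD+AOS and A10-FMT (1.83 to 5.41 RPKM) overlapped the other 12 (3.94 to 14.03 RPKM), because replicates 2 and 3 of A10-FMT lay above the lowest Con-FMT liver, and replicate 2 also above the lowest AOS liver (5.25 RPKM). Each group overlapped the next along the whole order of means. Cry1 also differed in that its AOS livers were all below its Con livers.

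**Figure D1:**
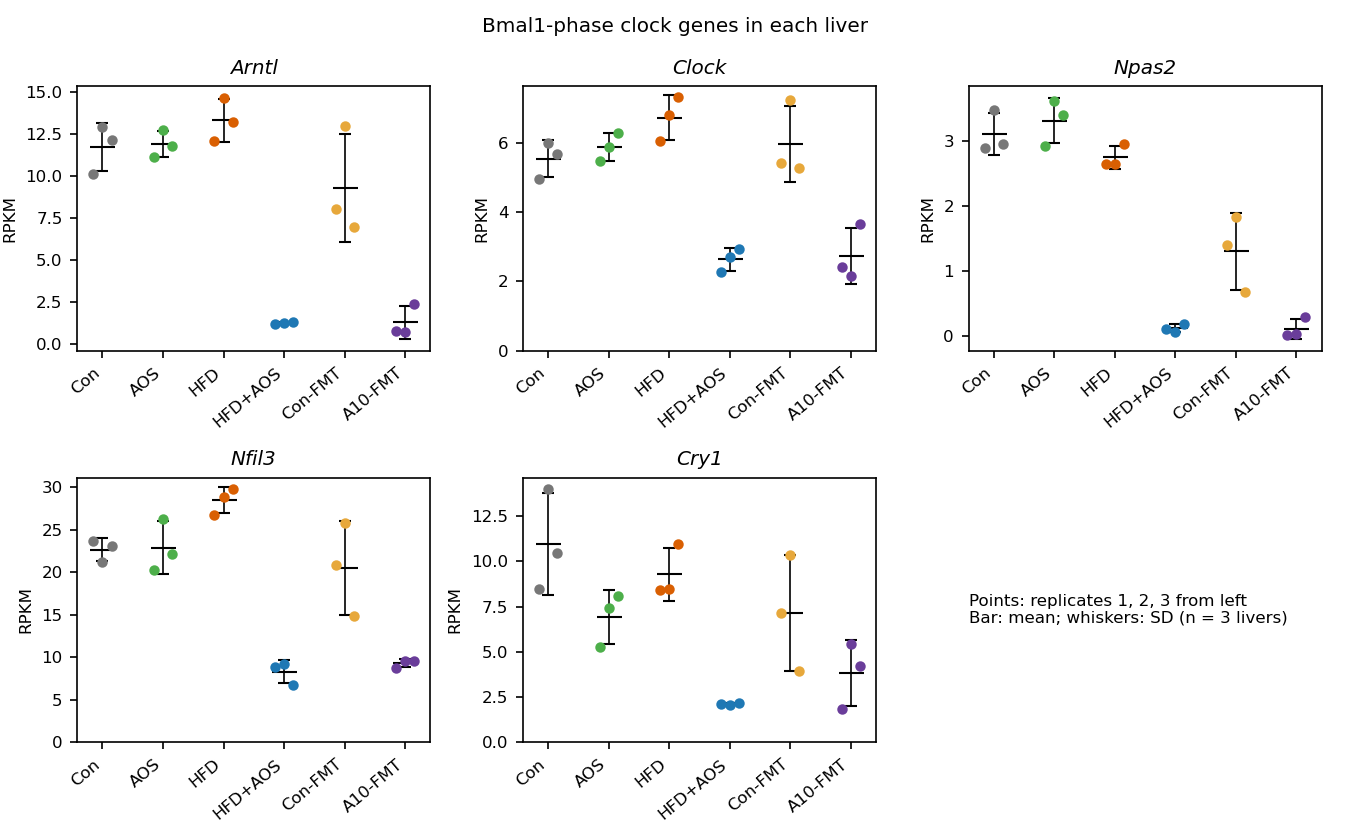
RPKM of Arntl, Clock, Npas2, Nfil3 and Cry1 in each of 18 livers, with 3 points per group (replicates 1, 2 and 3 from left), a bar at the mean and whiskers of 1 SD. Except in Cry1, the HFD+AOS and A10-FMT points lie below every other point, as with 0.69 to 2.41 RPKM against 6.94 to 14.64 RPKM in Arntl. The genes were chosen for this pattern, and the share of all genes that show it was not counted.

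The first comparison asked what the diet alone did to the genes. On the log2(RPKM + 1) scale, which understates changes of low genes, HFD differed from Con by 0.17 ± 0.22 (SE) for Arntl, 0.24 ± 0.14 for Clock, -0.13 ± 0.15 for Npas2, 0.32 ± 0.15 for Nfil3 and -0.20 ± 0.29 for Cry1. With limma and a Benjamini-Hochberg adjusted p under 0.05 over 10507 genes tested, 0 of 5 were called in either direction, against 0.381% of all genes tested, and 0 of 5 had an unadjusted p under 0.05, as 1623 of all 10507 genes did. The ranges of the groups did not overlap for Clock and Nfil3, both higher in HFD, where 13.8% of all genes tested were higher without overlap. Without Con replicate 3 and AOS replicate 3 the differences were 0.20 for Arntl, 0.26 for Clock, -0.16 for Npas2, 0.33 for Nfil3 and -0.22 for Cry1. Of the 5 genes 0 were then called, beside 0 of all 10507 genes.

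With AOS given on the regular diet, 4 of the 5 genes had estimates near 0 on the same log2 scale. The differences of AOS from Con were 0.02 ± 0.22 for Arntl, 0.07 ± 0.14 for Clock, 0.07 ± 0.15 for Npas2 and 0.01 ± 0.15 for Nfil3. Cry1 was 0.59 ± 0.29 lower by this estimate, and its ranges did not overlap, as in 5.27% of all genes tested that were lower. By limma 0 of 5 were called, against 0.133% of all genes tested, and 0 had an unadjusted p under 0.05, as 1633 of all 10507 genes did. Without Con replicate 3 and AOS replicate 3 the difference of Cry1 was -0.72 and those of the other 4 lay between 0.03 and 0.06.

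AOS given on the high-fat diet went with lower levels of all 5 genes. HFD+AOS differed from HFD by -2.67 ± 0.22 for Arntl, -1.09 ± 0.14 for Clock, -1.74 ± 0.15 for Npas2, -1.67 ± 0.15 for Nfil3 and -1.71 ± 0.29 for Cry1 on the log2 scale. All 5 were called lower, as were 4.58% of all genes tested, and in all 5 the groups did not overlap, as in 14.0% of all genes tested. Since the genes were chosen for this pattern, nothing is read from these counts. Ranked from the most negative difference of 10507 genes, Arntl was at position 2, Npas2 at 10, Cry1 at 12, Nfil3 at 13 and Clock at 47. The median of the 5 was -1.71, against -0.01 over all genes tested.

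The difference of the AOS effect between the diets sets these comparisons against each other. It was -2.70 ± 0.31 for Arntl, -1.16 ± 0.19 for Clock, -1.81 ± 0.21 for Npas2, -1.68 ± 0.22 for Nfil3 and -1.12 ± 0.41 for Cry1. The first 4 were called lower and Cry1 was not, beside 0.362% of all genes tested called lower. Without Con replicate 3 and AOS replicate 3 3 of 5 were called, because Clock, at -1.14, was no longer among them. In that fit 15 of all 10507 genes were called in either direction. In liver tissue as a whole, fewer cells expressing a gene and less RNA per cell cannot be told apart.

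Microbes of AOS-dosed donors were the subject of the next comparisons. A10-FMT differed from HFD by -2.71 ± 0.22 for Arntl, -1.07 ± 0.14 for Clock, -1.76 ± 0.15 for Npas2, -1.51 ± 0.15 for Nfil3 and -1.16 ± 0.29 for Cry1. All 5 were called lower, beside 3.98% of all genes tested, and none overlapped, beside 13.4%. These counts also follow from the choice of the genes. From the most negative difference, Arntl was at position 5 of 10507, Npas2 at 18, Nfil3 at 29, Cry1 at 52 and Clock at 61. The same 3 HFD livers were the reference here and for HFD+AOS, so the likeness of both sets of values rests in part on shared livers. When the low-value filter was dropped, when the fit held only the groups compared, or when HFD replicate 2, HFD replicate 3 or A10-FMT replicate 1 was left out, Cry1 lost its call, and likewise without Con replicate 3 and AOS replicate 3. Without A10-FMT replicate 1, the liver with the highest fat markers, the differences from HFD were -2.57 for Arntl, -1.01 for Clock, -1.70 for Npas2, -1.47 for Nfil3 and -0.82 for Cry1. With a pseudocount of 0.1 in place of 1, which weighs low values more, Npas2 stood at -3.96 here and at -3.73 in HFD+AOS.

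Con-FMT mice received microbes of control donors, and their comparison with HFD concerns the transplant as such. Con-FMT differed from HFD by -0.51 ± 0.22 for Arntl, -0.16 ± 0.14 for Clock, -0.74 ± 0.15 for Npas2, -0.49 ± 0.15 for Nfil3 and -0.41 ± 0.29 for Cry1. The estimates were below 0 for all 5 and 0 were called by limma, beside 0.00952% of all genes tested, while 3 of 5 had an unadjusted p under 0.05, as 697 of all 10507 genes did. Npas2 and Nfil3 were lower without overlap, as were 4.08% of all genes tested. The Con-FMT livers differed from each other in all 5 genes in the same order, with replicate 2 the highest and replicate 3 the lowest in 5 of 5. The highest liver was 1.87 times the lowest for Arntl, 1.37 times for Clock, 2.73 times for Npas2, 1.74 times for Nfil3 and 2.63 times for Cry1.

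A10-FMT against Con-FMT compared the donors with the transplant held the same. The difference was -2.20 ± 0.22 for Arntl, -0.91 ± 0.14 for Clock, -1.02 ± 0.15 for Npas2, -1.03 ± 0.15 for Nfil3 and -0.76 ± 0.29 for Cry1. By limma 4 of 5 were called lower, all but Cry1, beside 1.23% of all genes tested. The same 4 did not overlap between the groups, beside 11.2% of all genes tested. With a pseudocount of 0.1 the difference of Npas2 was -2.84. In a fit of only these 2 groups 0 of 5 were called, and 4 of all 10507 genes in place of 177. Con-FMT/A10-FMT ratios of mean RPKM were 7.18 for Arntl, 2.18 for Clock, 2.20 for Nfil3 and 1.87 for Cry1.

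**Figure D2:**
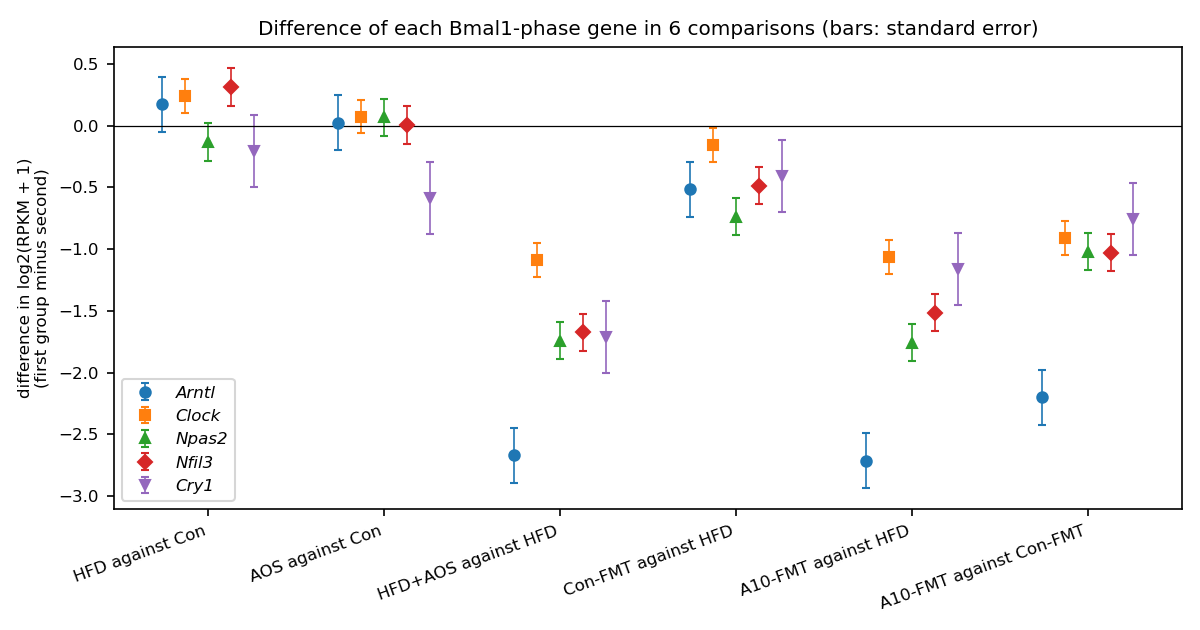
Difference in log2(RPKM + 1), first group minus second, of the 5 genes in 6 comparisons, with bars of 1 standard error from the limma fit of 18 livers. The points of HFD against Con lie between -0.20 (Cry1) and 0.32 (Nfil3), and those of AOS against Con near 0 except Cry1 (-0.59). Those of Con-FMT against HFD lie between -0.74 and -0.16, and those of HFD+AOS and A10-FMT against HFD between -2.71 and -1.07.

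Among livers of 1 group the genes varied together in part, Nfil3 least closely. Over 18 livers the Pearson correlation of log2(RPKM + 1) with Arntl was 0.98 for Clock, 0.96 for Npas2, 0.96 for Nfil3 and 0.86 for Cry1, values that the gap between the groups carries. After the mean of its group was taken from each liver, the correlation with Arntl was 0.91 for Clock, 0.79 for Npas2, 0.46 for Nfil3 and 0.51 for Cry1, and between Clock and Nfil3 it was 0.29. Genes of 1 liver share its library, and these values are a description. Replicate 1 of HFD and replicate 1 of AOS were the lowest of their groups in 5 of 5 genes, and A10-FMT replicate 3 was the highest in 4 of 5, the exception being Cry1. In Con replicate 2 was the highest and replicate 1 the lowest in 4 of 5 genes, while Nfil3 had the opposite order, and HFD+AOS replicate 3 was the highest in the same 4 and the lowest for Nfil3. The median log2(RPKM + 1) of genes tested was also lowest of its group in HFD replicate 1 (2.96) and Con replicate 1 (2.89). It was highest in Con replicate 2 (3.00), HFD+AOS replicate 3 (3.07) and A10-FMT replicate 3 (2.99), but also in AOS replicate 1 (3.06). The part of these medians in the order was not tested. In A10-FMT replicate 3 was 3.49 times the lowest liver for Arntl and 1.70 times for Clock, but 1.10 times for Nfil3.

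The 5 genes differed between groups by unequal amounts, and so did their proportions. CLOCK and NPAS2 are alternative partners of BMAL1, and the RPKM of their genes can be set against each other per unit of length. Clock over Arntl was 0.465 to 0.489 in Con, 0.462 to 0.533 in AOS and 0.464 to 0.554 in HFD, so that Arntl RPKM was 1.80 to 2.16 times Clock RPKM in these 9 livers. The ratio was 0.557 to 0.758 in Con-FMT, 1.92 to 2.22 in HFD+AOS and 1.51 to 3.12 in A10-FMT, where Clock exceeded Arntl in all 6 livers. Con-FMT lay above the other livers with a ratio under 1, without overlap.

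The share of Npas2 in the summed RPKM of Npas2 and Clock fell into steps. It was 34.2% to 37.0% in Con and 34.9% to 38.0% in AOS, which overlapped, and 28.0% to 30.4% in HFD. It was 11.3% to 20.6% in Con-FMT, 2.17% to 6.09% in HFD+AOS and 0.826% to 7.36% in A10-FMT. HFD thus lay below Con and AOS and above Con-FMT without overlap. Npas2 by itself overlapped between HFD (2.64 to 2.95 RPKM) and Con (2.9 to 3.48 RPKM), while Clock did not (6.04 to 7.32 RPKM against 4.94 to 6 RPKM). No test was run on these shares.

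**Figure D3:**
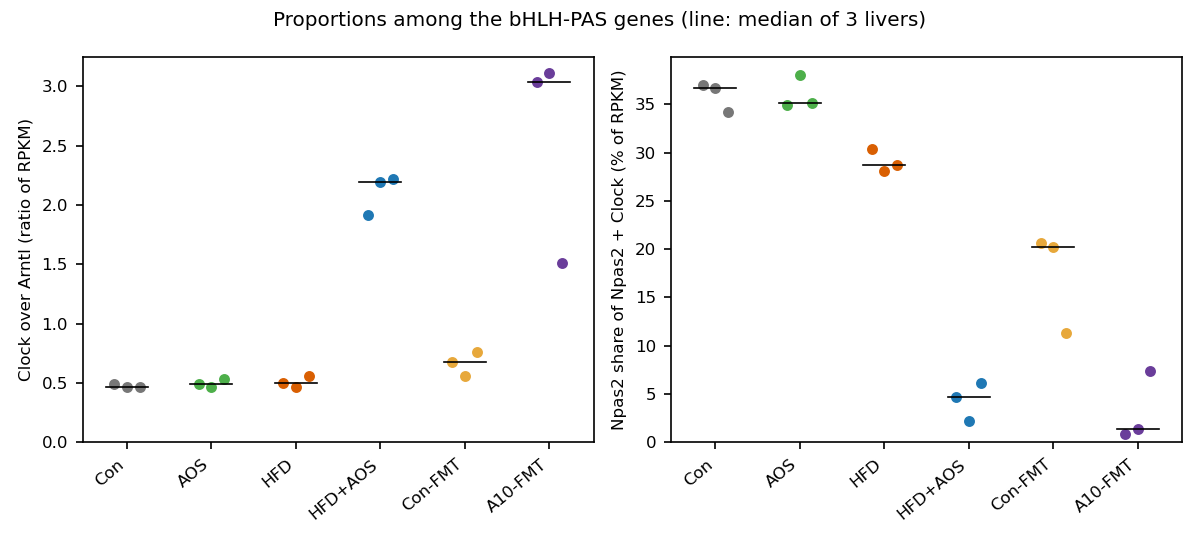
Ratio of Clock to Arntl RPKM (left) and Npas2 as a percentage of Npas2 plus Clock RPKM (right) in each of 18 livers, 3 points per group with a line at the median. The ratio is under 1 in 12 livers and 1.51 to 3.12 in HFD+AOS and A10-FMT, and the share descends from 34.2% or more in Con and AOS to 7.36% or less in HFD+AOS and A10-FMT.

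The repressor and PAR bZIP genes are those on which CLOCK and BMAL1 act, and the list held 12 (Per1, Per2, Per3, Cry2, Nr1d1, Nr1d2, Dbp, Tef, Hlf, Bhlhe40, Bhlhe41 and Ciart). It was written with values of these livers known, so its direction is not independent evidence. Bhlhe41 and Ciart passed the low-value filter only through the groups in which they were high, so their calls here and below are a description. Of the 12, 11 were called higher in the A10-FMT livers than in the HFD livers, beside 2.62% of all genes tested. The exception was Nr1d1, at 21.72, 7.35 and 2.12 RPKM in HFD and 62.5, 15.3 and 35.88 RPKM in A10-FMT (log2 difference 2.00, limma adjusted p = 0.0598). It was called at 2.72 when HFD replicate 1, the liver at 21.72 RPKM, was left out (limma adjusted p = 0.0112), beside a range of adjusted p from 0.0112 to 0.242 over all alternatives. The count of 11 fell to 7 without A10-FMT replicate 1 and to 7 without HFD replicate 2. Over all genes the number called in either direction fell from 693 to 289 and 323 in these fits. In HFD+AOS against HFD 10 of 12 were called higher, all but Per1 and Per2, beside 4.17%. The list's median was 1.71 in A10-FMT and 1.51 in HFD+AOS, against -0.03 and -0.01 over all genes tested.

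Dbp, the D-box activator whose sites Nfil3 represses, covered the widest range of RPKM among the 12. Its livers read 0.66, 0.58 and 0.68 RPKM in Con, 3.41, 0.36 and 1.78 RPKM in AOS and 0.56, 0.27 and 0.59 RPKM in HFD. HFD+AOS livers read 111.84, 88.9 and 97.76 RPKM, Con-FMT livers 16.54, 3.24 and 22.57 RPKM and A10-FMT livers 126.9, 70.84 and 49.17 RPKM. The 6 livers with the lowest Arntl were the 6 with the highest Dbp. Its log2 difference from HFD was 6.09 in HFD+AOS (limma adjusted p = 6.38e-06) and 5.72 in A10-FMT (limma adjusted p = 1.23e-05). Within Con-FMT the liver with the highest Arntl, replicate 2, had the lowest Dbp, and the liver with the lowest Arntl, replicate 3, had the highest.

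Nfil3 over Dbp sets a D-box repressor against an activator of the same sites. The ratio of their RPKM was 34.0 to 36.6 in Con, 5.94 to 73.1 in AOS and 47.8 to 107 in HFD. It was 0.658 to 7.98 in Con-FMT, 0.0691 to 0.104 in HFD+AOS and 0.0690 to 0.195 in A10-FMT. Dbp RNA thus exceeded Nfil3 RNA in all 6 livers of the last 2 groups and in 1 Con-FMT liver, replicate 3, and Nfil3 exceeded Dbp in the other 11.

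Ciart and Per3 also separated the HFD+AOS and A10-FMT livers from the other 12, as did Cry2, Nr1d2, Dbp, Tef and Hlf. The windows of Nr1d2, Dbp and Hlf held none of the motifs searched for. Per1 and Bhlhe41, each with an E-box, overlapped. The share of all genes with such a separation was not counted. Ciart read 0.05, 0.2 and 0.2 RPKM in HFD, 7.21, 9.82 and 10.68 RPKM in HFD+AOS, 0.96, 0.63 and 1.9 RPKM in Con-FMT and 14.63, 13.66 and 8.99 RPKM in A10-FMT. Its log2 difference from HFD was 3.14 in HFD+AOS (limma adjusted p = 2.81e-07) and 3.52 in A10-FMT (limma adjusted p = 1.02e-07), and with a pseudocount of 0.1 these were 5.27 and 5.69. Per3 read 0.44, 0.38 and 0.38 RPKM in HFD, 7.77, 6.6 and 8.47 RPKM in HFD+AOS and 10.14, 8.86 and 4.59 RPKM in A10-FMT. For both genes the 6 livers of HFD+AOS and A10-FMT were above the other 12. Tef, a PAR bZIP activator like DBP, rose from a mean of 6.41 RPKM in HFD to 42.3 RPKM in HFD+AOS and 44.1 RPKM in A10-FMT, also without overlap.

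Con-FMT again stood between the others. Of the 12 genes 0 were called by limma in Con-FMT against HFD, 8 had an unadjusted p under 0.05 (697 of all 10507 genes), and the median was 0.78 against -0.00 over all genes tested. In A10-FMT against Con-FMT 4 of 12 were called higher (Per3, Dbp, Tef and Ciart), beside 0.457% of all genes tested. With replicate 1 of A10-FMT left out that count was 2, with its replicate 3 left out 6, and the 0 against HFD became 1 without Con-FMT replicate 2 (Dbp) and 1 without HFD replicate 1 (Nr1d2). Over all genes the calls in A10-FMT against Con-FMT were 66 and 564 in place of 177. In Con-FMT against HFD they were 2 and 13 in place of 1. Per3, Dbp, Tef and Ciart were also called higher in the difference of the AOS effect between the diets, beside 0.143%. Of the 12, HFD against Con called 0 (2 had an unadjusted p under 0.05, beside 1623 of all 10507 genes), and AOS against Con called 1, Nr1d2, with a log2 difference of 1.39 (limma adjusted p = 0.0221). That gene, which encodes a repressor of Arntl, read 2.05, 3.03 and 2.49 RPKM in Con and 10.41, 6.39 and 8.16 RPKM in AOS, while Arntl differed by 0.02. The call of Nr1d2 was lost without replicate 1 or replicate 3 of either group, at differences of 1.23 to 1.39, and without both replicates 3.

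**Figure D4:**
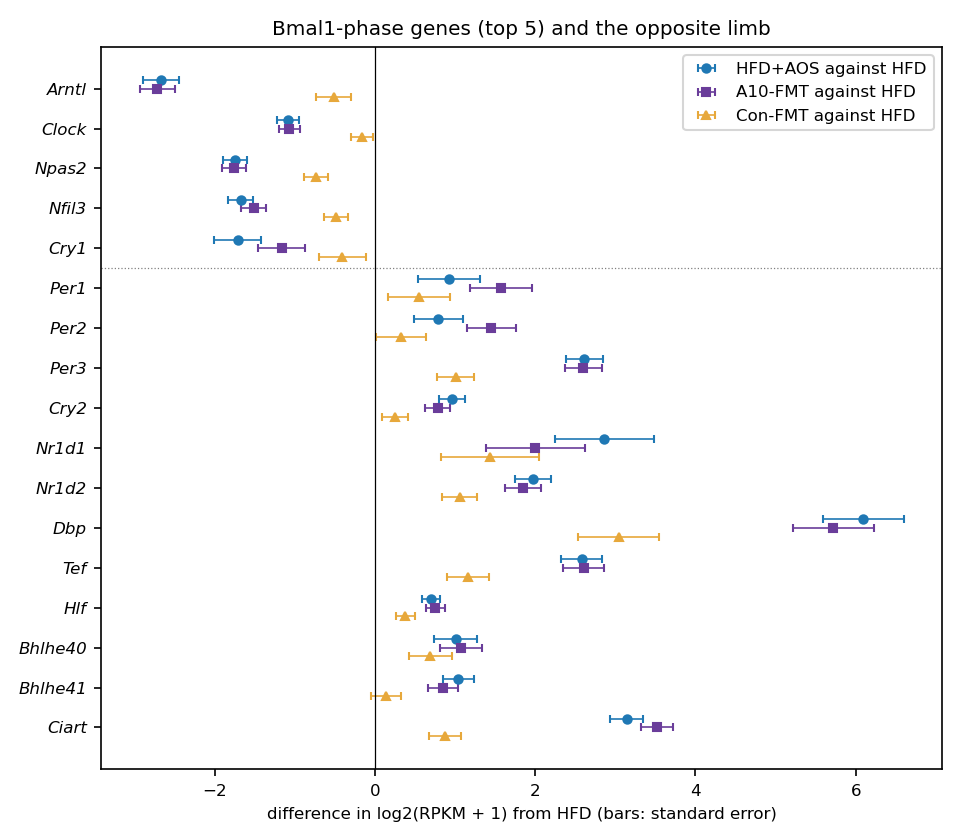
Difference from HFD in log2(RPKM + 1) of the 5 genes (above the dotted line) and of the 12 repressor and PAR bZIP genes (below it), for HFD+AOS (circles), A10-FMT (squares) and Con-FMT (triangles), with bars of 1 standard error. All 3 groups lie left of 0 for the 5 genes and right of 0 for the 12, with Dbp farthest right at 6.09 and 5.72 in HFD+AOS and A10-FMT.

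For each liver the mean log2(RPKM + 1) of the 12 genes was taken from that of the 5. This difference was 1.32 to 1.67 in Con, 0.41 to 1.48 in AOS and 1.22 to 1.72 in HFD. It was -2.44 to -2.23 in HFD+AOS and -2.75 to -1.64 in A10-FMT. The 3 Con-FMT livers were at 0.10, 0.87 and -0.58, so that none of the 9 livers of Con, AOS and HFD had a negative value, 1 Con-FMT liver had, and so did all 6 of HFD+AOS and A10-FMT. No test was run on it, since both lists were chosen with these values known.

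**Figure D5:**
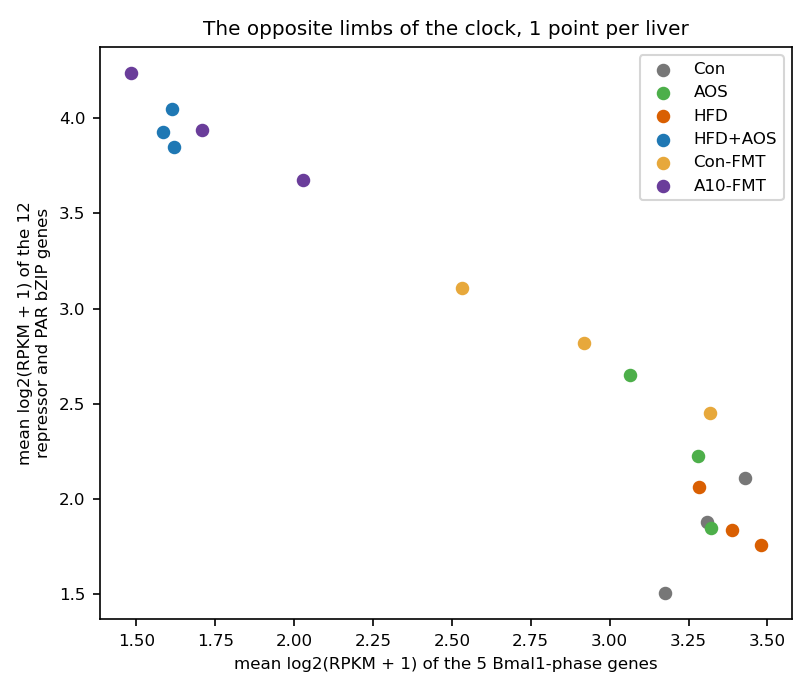
Mean log2(RPKM + 1) of the 12 repressor and PAR bZIP genes against that of the 5 genes, 1 point per liver. The HFD+AOS and A10-FMT livers lie at the upper left, the Con, AOS and HFD livers at the lower right and the Con-FMT livers along the way, with mean differences of 0.10, 0.87 and -0.58.

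Other factors that act on the loop were listed as well. Of 19 listed regulators (ROR activators, kinases, ubiquitin ligases, cofactors and further relatives) 15 were tested, and 3 were called in A10-FMT against HFD and 1 in HFD+AOS against HFD, beside 6.60% and 8.75% of all genes tested. Usp2, which encodes a deubiquitinating enzyme and is itself driven by the clock, read 0.69, 0.61 and 1.55 RPKM in HFD, 5.96, 5.81 and 6.32 RPKM in HFD+AOS and 11, 14.38 and 5.77 RPKM in A10-FMT. Its log2 difference from HFD was 1.88 in HFD+AOS (limma adjusted p = 0.000191) and 2.50 in A10-FMT (limma adjusted p = 1.54e-05). In A10-FMT the ubiquitin ligase gene Fbxw11 and the corepressor gene Ncor1 fell by 0.24 and 0.33 on the log2 scale (limma adjusted p = 0.0412 and 0.0375), and each lost its call under 9 of 12 alternatives, among them leaving out HFD replicate 2 or 3 or A10-FMT replicate 1 or 2. The count of these and the clock-controlled genes together, 11 in A10-FMT against HFD, was 7 when replicate 1 of A10-FMT was left out and 7 when its replicate 2 was. Over all genes the count fell from 693 to 289 and 271. Rora, which encodes an activator at ROR elements, is named for that role after its values were seen. It was at -0.36 in HFD+AOS and -0.28 in A10-FMT (limma adjusted p = 0.0952 and 0.199). Without HFD replicate 1 Rora was called, at -0.51 in HFD+AOS and -0.43 in A10-FMT, and without HFD replicate 2 it stood at -0.23 and -0.15.

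Of 13 clock-controlled liver genes 8 were called in A10-FMT compared with HFD (5 higher, 3 lower), beside 6.60% of all genes tested. In HFD+AOS compared with HFD 6 were called (4 higher, 2 lower), beside 8.75%. Wee1, which encodes a kinase that delays mitosis, had a log2 difference of 1.68 in both (limma adjusted p = 3.12e-05 in A10-FMT and 3.54e-05 in HFD+AOS). Cdkn1a, which encodes the cell cycle inhibitor p21, moved with Arntl, at 11.99, 11.81 and 16.47 RPKM in HFD, 0.91, 0.51 and 0.73 RPKM in HFD+AOS and 0.41, 0.27 and 2.18 RPKM in A10-FMT. Its log2 difference in HFD+AOS was -3.06 (limma adjusted p = 1.62e-05), and in A10-FMT its mean went from 13.4 to 0.953 RPKM (limma adjusted p = 1.95e-05). Elovl3, a fatty acid elongase gene, read 250.25, 174.28 and 183.36 RPKM in HFD, 25.24, 26.48 and 45.27 RPKM in HFD+AOS and 20.96, 16.83 and 29.07 RPKM in A10-FMT. It was -2.64 in HFD+AOS (limma adjusted p = 8.70e-05) and -3.14 in A10-FMT (limma adjusted p = 1.54e-05). In HFD against Con the call was of Fgf21, a fasting hormone gene, at 1.44 (limma adjusted p = 0.0283), and it was lost without replicate 1 or replicate 3 of either group, at differences of 1.27 to 1.47.

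Genes outside the 5 were ranked by the Pearson correlation of log2(RPKM + 1) with Arntl over 18 livers, as a description that the separation of the groups carries. Among the most alike were Chka (0.99), which encodes choline kinase, Lrfn3 (0.98), Cdkn1a (0.98) and Mical2 (0.98). After group means were taken out, these stood at 0.88, 0.77, 0.73 and 0.78. Chka averaged 44.1 RPKM in HFD, 8.44 RPKM in HFD+AOS and 9.62 RPKM in A10-FMT. Over the 12 livers of the other 4 groups the correlation with Arntl was 0.85 for Chka, near the 0.82 of Nfil3 and above the 0.70 of Clock and of Cry1. The most opposite were Ciart (-0.99), Wee1 (-0.97), Per3 (-0.97), Dbp (-0.95) and Tef (-0.95). Of these, Wee1 stood at -0.34 over the 12 livers and Dbp at -0.87.

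The makeup of the tissue was read from summed RPKM of marker lists. All 7 hepatocyte markers were detected, with sums of 57229 to 67330 in HFD, 63144 to 70137 in HFD+AOS and 56986 to 60371 in A10-FMT. The 7 Kupffer cell markers summed to 44.6 to 98.2 in HFD, 65.9 to 73.5 in HFD+AOS and 46.9 to 57.4 in A10-FMT. The 6 endothelial markers gave 45.0 to 47.5, 46.8 to 52.7 and 45.6 to 51.0, and the 6 stellate cell markers 91.1 to 110.6, 85.5 to 120.5 and 101.8 to 108.8 in the same groups. Each of these ranges in A10-FMT overlapped that of HFD, and so did those in HFD+AOS. In other comparisons some sums lay apart. Hepatocyte sums in Con-FMT (66354 to 68338) were above A10-FMT, and endothelial sums in Con-FMT (49.8 to 54.3) above HFD. Con was below HFD in stellate sums (77.7 to 88.0) and above it in lymphocyte sums (2.16 to 2.33). Blood marker sums in AOS (2116 to 2743) were above Con (1258 to 1980). The part of these in the differences of the 5 genes was not tested. Of single markers, 1 of 7 hepatocyte markers, Apob, was called lower in HFD+AOS and A10-FMT (log2 difference -0.37 and -0.40), as was 1 of 3 tested bile duct markers, Sox9 (-0.87 and -1.03). The 6 blood markers, from 826 to 2700 in HFD, overlapped those of HFD+AOS (874 to 1267) and A10-FMT (1237 to 2961). The 5 bile duct markers gave 19.0 to 25.6 in HFD, 21.3 to 29.9 in HFD+AOS and 20.5 to 24.6 in A10-FMT, and the 6 lymphocyte markers 1.59 to 2.11, 2.17 to 3.09 and 1.22 to 6.02. Lymphocyte sums were thus above those of HFD in HFD+AOS without overlap, and the part of this in the differences of the 5 genes was not tested. The 6 markers of fat and pancreas summed to 32.3 to 53.0 in HFD, 44.7 to 48.3 in HFD+AOS and 38.1 to 77.4 in A10-FMT, and most of each sum was Cela1. The fat markers Adipoq, Plin1 and Cfd averaged 1.60, 0.363 and 7.82 RPKM in A10-FMT against 0, 0 and 0.08 RPKM in HFD and 0.02, 0 and 0.08 RPKM in HFD+AOS, and the differences of the 5 genes without A10-FMT replicate 1, which carried most of this, are given above.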

How the data were processed

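The authors deposited RPKM values, rounded to 2 decimals, for 19057 gene lines in 18 livers. The study's methods name SOAPaligner with settings that report every hit of a read, so reads of near-identical genes could count for more than 1. The submitters' processing notes name Bowtie 0.12.2 and mm10 instead. Annotation and strandedness are not given in the sources used here. The unit is known from the study's methods and is not written in the table. Genes that reached an RPKM of 1 in 3 or more livers were kept (10507 of 17109 above 0), values were log2(RPKM + 1), and a mean for each of 6 groups was fitted over 18 livers with limma 3.58.1 in R 4.3.3 (lmFit, eBayes with trend), with Benjamini-Hochberg adjustment over all genes within each of 7 comparisons. The authors' DEGseq needs read numbers and was not run. The fit was tested on simulated data. Python 3.11.15 (numpy 2.4.6, pandas 2.3.3, matplotlib 3.10.9) made the tables, motif searches and figures.

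The 5 genes and all lists were chosen with earlier results of these data known. Named are the 5 genes, repressor and PAR bZIP genes that were called or most abundant, up to 4 called genes of the other clock lists per comparison by smallest p, the genes among the 5 most like and the 5 most unlike Arntl, and defining markers, with some results not reported here; other names were chosen after their values were seen. Replicate numbers were not treated as pairs in the main fit. Correlations of deviations between same-numbered livers went from -0.177 to 0.225, and 0 of 15 pairs of groups had every one over 0.1. With 3 livers per group this check cannot exclude shared handling of same-numbered livers. Alternatives were equal library medians, a smaller pseudocount (0.1), all genes above 0 in place of the filter, a fit of only the groups compared, the replicate number as a block, leaving out each liver, and leaving out replicate 3 of both Con and AOS.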

Additional observations from a re-analysis of the deposited data

Results flagged for a closer look

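The effect of AOS differed between the diets for 12 of 45 tested clock or clock-controlled genes and for 53 of all 10507 genes, by the test of the difference itself in limma (HFD+AOS minus HFD, less AOS minus Con, on the log2 scale). For the 5 genes described, the values restate the pattern they were chosen for. They were -2.70 for Arntl, -1.16 for Clock, -1.81 for Npas2 and -1.68 for Nfil3. Among repressor and PAR bZIP genes the difference was 2.48 for Per3 (limma adjusted p = 0.00144), 5.45 for Dbp (limma adjusted p = 0.00137), 2.12 for Tef (limma adjusted p = 0.0121) and 3.26 for Ciart (limma adjusted p = 5.11e-05). It was 2.55 for Usp2 (limma adjusted p = 0.00134), 1.86 for Wee1 (limma adjusted p = 0.00136), -2.74 for Cdkn1a (limma adjusted p = 0.00349) and 1.07 for Gys2, a liver glycogen synthase gene (limma adjusted p = 0.0367). Gys2 lost its call under 11 of 18 alternatives, with a limma adjusted p of up to 0.269. Ciart passed the low-value filter only through the groups in which it was high. With a pseudocount of 0.1 the difference was -3.82 for Npas2, 5.75 for Ciart and 3.87 for Usp2. All rest on Con and AOS groups whose replicates 3 lay close to a weighted mean of the others. Without both of these livers 15 of all 10507 genes were called in place of 53. The call was then kept by Arntl, Npas2, Nfil3, Per3, Dbp, Ciart, Usp2, Wee1 and Cdkn1a, and was lost by Clock, Tef (2.11, limma adjusted p = 0.119) and Gys2.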

How the results depend on the processing

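Of 450 alternative values of 35 differences of the 5 genes (7 comparisons), 438 kept the side of the threshold, 11 lost the call, 1 gained it and 0 reversed with a call. Among the 438 some estimates near 0 that were not called changed sign, by no more than 1 SE. An example is Arntl in AOS against Con, at 0.02 and as low as -0.07. Losses were of Cry1 in A10-FMT against HFD (6 of 12 alternatives), of Clock in the difference between the diets without Con and AOS replicate 3, and of Arntl, Clock, Npas2 and Nfil3 in A10-FMT against Con-FMT with only the groups compared, where 0 of 5 were called in place of 4. Of 372 alternative values of 27 tested differences of other named genes 326 kept side and direction, 42 lost the call, 4 gained it and 0 reversed. The gain among the 5 genes was Cry1 in the difference between the diets with only the groups compared. With a pseudocount of 0.1 the difference of Npas2 from HFD was -3.96 in A10-FMT and -3.73 in HFD+AOS, in place of -1.76 and -1.74. Fits of only the groups compared also called, of the 12 repressor and PAR bZIP genes, 7 in place of 11 in A10-FMT against HFD, and 1 in place of 4 in A10-FMT against Con-FMT, and of the regulators and clock-controlled genes 0 in place of 1 in HFD against Con, 5 in place of 11 in A10-FMT against HFD, 1 in place of 8 in A10-FMT against Con-FMT and 1 in place of 0 in AOS against Con. In HFD+AOS against HFD they called 11 repressor and PAR bZIP genes in place of 10, and in the difference between the diets 5 in place of 4. Over all genes they called 78 in place of 693 in A10-FMT against HFD, but 41 in place of 14 in AOS against Con and 137 in place of 53 in the difference between the diets. In Con-FMT against HFD 1 repressor, Dbp, was called in place of 0 with a pseudocount of 0.1 and with the replicate block. The replicate block also called 0 in place of 1 regulator or clock-controlled gene in HFD against Con, and no count of the 5 genes changed under the block. Without Con and AOS replicate 3 the repressor called in AOS against Con fell from 1 to 0, and the clock-controlled gene in HFD against Con from 1 to 0. Over all genes that fit called 0 in place of 14 and 0 in place of 40 in these comparisons. It called 395 in place of 693 in A10-FMT against HFD and 496 in place of 919 in HFD+AOS against HFD. In A10-FMT against Con-FMT it called 82 in place of 177, and in the difference between the diets 15 in place of 53. With 1 liver left out, repressor counts were 7 to 11 in A10-FMT against HFD, 2 to 6 in A10-FMT against Con-FMT, 0 to 1 in Con-FMT against HFD and 0 to 1 in AOS against Con, and those of regulators and clock-controlled genes 7 to 12 in A10-FMT against HFD and 0 to 1 in HFD against Con. Over all genes the counts with 1 liver left out were 271 to 1218 in A10-FMT against HFD and 51 to 564 in A10-FMT against Con-FMT. The cause was not tested. Depth is unknown, which limits Npas2 most.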
